A study of Mus musculus with 12 samples.

Results

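The 10 genes described here encode the cytosolic HSP90 chaperones, their main co-chaperones and the heat shock factors that control heat shock genes in mouse hepatocytes. They were chosen by symbol, as *Hsp90aa1*, *Hsp90ab1*, *Hsf1*, *Hsf2*, *Ahsa1*, *Fkbp4*, *Stip1*, *Cdc37*, *Chordc1* and *Ptges3*, and all 10 were found among the 24824 genes of the deposited table. RNA was sequenced from AML12 cells, an immortalized line of mouse hepatocytes, after 24 h in 4 conditions with 3 libraries each. Group A was left untreated in its usual medium. Group B was given 300 μM CuCl2 together with 40 nM elesclomol (ES), an ionophore that carries copper into cells (Cu/ES). Group C was given the same Cu/ES with 1000 μM of the bile acid taurocholic acid (TCA), and group D was given 1000 μM TCA without Cu/ES. Levels are given as FPKM, fragment counts scaled to gene length and to the library total. The library totals recovered from these values were 38298859 to 39108522 reads for group A, 30773754 to 32002326 for B, 29115013 to 34912750 for C and 39444423 to 39782145 for D. Each of the 10 genes had at least 696 reads in every library. The labels do not say whether the 3 libraries of a group came from separate cultures, so p-values measure the spread between libraries, which may be technical.

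HSP90 is an ATP-driven dimer that acts late in the folding of many kinases, steroid hormone receptors and other client proteins. In mammals the cytosol holds an inducible form, encoded by *Hsp90aa1*, and a constitutive form, encoded by *Hsp90ab1*, and co-chaperones bring clients to the dimer, set the rate of its ATPase or hold it closed. HSP90 also restrains the transcription factor HSF1, which is freed when misfolded proteins accumulate, forms trimers and binds repeats of the letters GAA in alternating orientation, called heat shock elements.

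Of the hepatocyte markers, *Apoe*, *Krt8* and *Krt18* had a mean of at least 1 FPKM in group A, while *Alb* was listed at 0 in every library of groups A, C and D. Of 11 such markers 8 were in the table, 3 of them at 0 in every library of group A. *Apoa1* and *Asgr1* stood at 0.0086 and 0.079 FPKM in that group, and *Apoe* at 1.73. The summed level of the 8 was 598 to 651 FPKM in untreated cells and 247 to 299.7 under Cu/ES. It was 205 to 237 under Cu/ES with TCA and 701 to 721 under TCA alone. Of 11 markers of other liver cells 10 were in the table, 3 of them at 1 FPKM or more in group A (*Cd68*, *Krt19* and *Sox9*), with sums of 305 to 429 FPKM untreated, 146 to 175 under Cu/ES, 174 to 188 under both agents and 184 to 283 under TCA alone. The hepatocyte sum was lower in every library with Cu/ES than in every library without, while for the other liver cells groups C and D overlapped. These sums are carried by a few keratins and *Cd68*, and their members did not move as one. Of 4 hepatocyte markers tested for group B vs. A, *Apoe* and *Asgr1* rose (log2 fold change 1.72 and 2.16) and *Krt8* and *Krt18* fell (-0.90 and -1.79), and of 5 markers of other liver cells, *Pecam1* and *Sox9* rose (2.65 and 2.19) and *Cd68* and *Krt19* fell (-1.71 and -1.78). The part of any of them in the results was not tested.

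The first question was how Cu/ES changed these genes (group B vs. A). On FPKM 7 of the 10 genes rose, namely *Hsp90aa1*, *Hsp90ab1*, *Ahsa1*, *Stip1*, *Ptges3*, *Chordc1* and *Cdc37*, 1 fell (*Fkbp4*), and *Hsf1* and *Hsf2* did not pass the test, with signs that turned under another scaling for *Hsp90ab1*, *Cdc37*, *Fkbp4*, *Hsf1* and *Hsf2*. The test was limma on log2(FPKM + 1) with p-values adjusted by the Benjamini-Hochberg method over 10615 genes, at an adjusted p under 0.05. By the same rule 20.1% of all genes tested were called higher and 72.0% lower. With an absolute log2 fold change above 1 as a further condition, 5 of the 10 genes were higher and 0 were lower, against 10.1% and 53.0% of all genes. The median log2 fold change was 1.29 over the 10 genes and -1.10 over all genes tested. FPKM are relative to the total of a library, and in bulk RNA fewer cells, less RNA per cell and a larger share of other transcripts cannot be told apart. Relative to the median gene, the log2 fold changes of the 10 genes ran from 0.38 for *Fkbp4* to 4.61 for *Hsp90aa1*.

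*Hsp90aa1*, the inducible HSP90, measured 156, 158 and 153 FPKM in the 3 libraries of group A and 1729.6, 1906 and 1711 FPKM in those of group B. Group C measured 1175, 1396 and 1205 FPKM and group D 152, 159.6 and 158 FPKM. The libraries with Cu/ES all lay far above those without it, and groups A and D overlapped. The log2 fold change for group B vs. A was 3.51 ± 0.07 (± SE), an 11.4-fold difference on the FPKM + 1 scale (limma, Benjamini-Hochberg adjusted p = 3.63e-14), and 4.61 above the median gene. In order of log2 fold change it stood at place 66 of 10615 genes.

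*Hsp90ab1*, the constitutive HSP90, was already the highest of the 10 genes without treatment, at 1845, 1832 and 1889 FPKM in group A, and reached 2907, 2833 and 2965 FPKM in group B. It measured 2971, 3297 and 2946 FPKM in group C and 1824, 1773 and 1752 FPKM in group D. Again the libraries with Cu/ES stood clear of those without. The log2 fold change was 0.64 ± 0.06 (limma, adjusted p = 1.19e-07) on FPKM, but it turned to -0.45 under quantile normalization, and relative to the median gene it was 1.75.

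**Figure D1:**
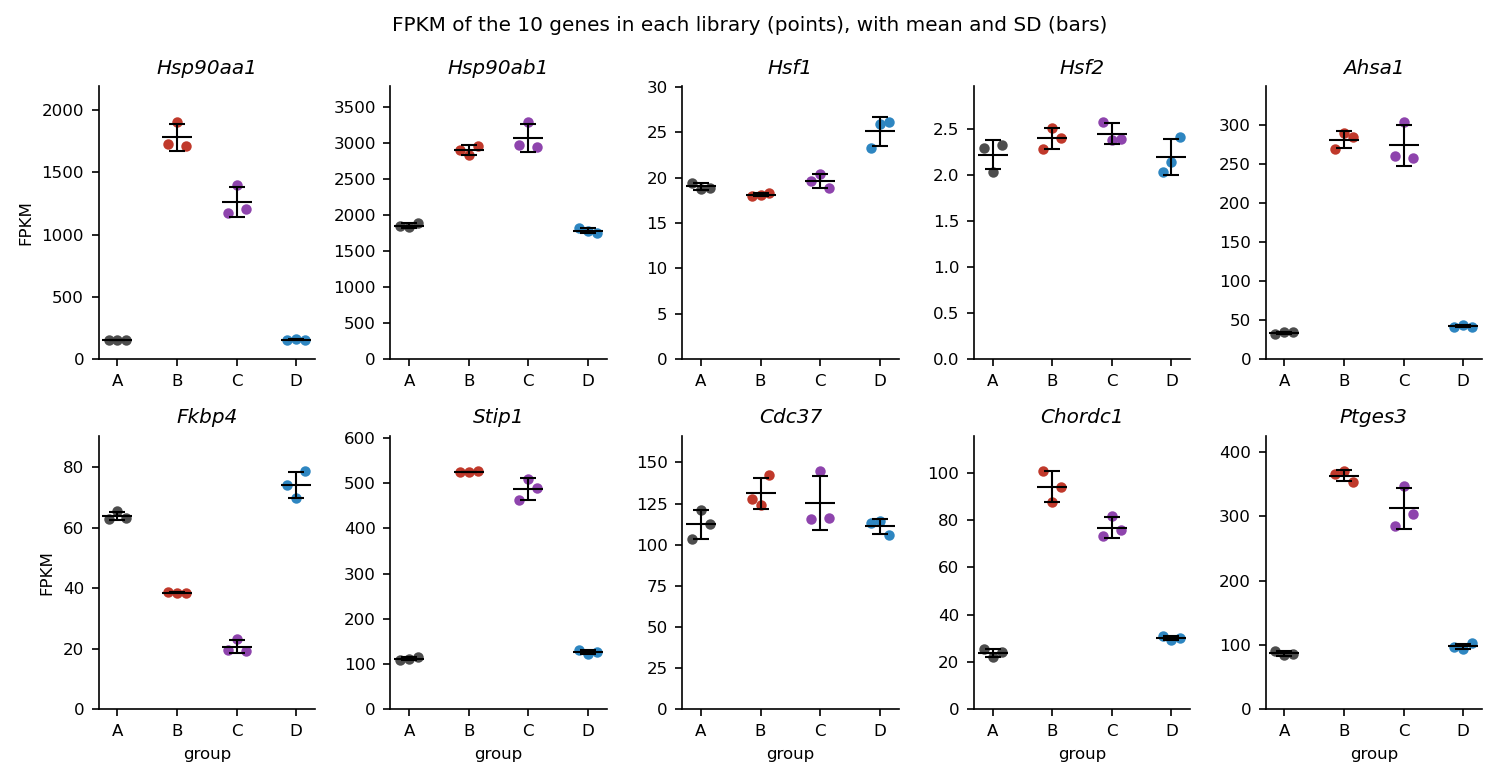
FPKM of each of the 10 genes in the 12 libraries (y axis, linear and starting at 0, with its own range in every panel) by group (x axis: A untreated, B Cu/ES, C Cu/ES with TCA, D TCA). Points are libraries and bars are mean and SD of 3 libraries; *Hsp90aa1* stands at 155.5 FPKM in group A and 1782 in group B, whereas *Fkbp4* falls from 63.9 to 38.5 and to 20.7 FPKM in group C.

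The balance of both forms was followed as the ratio of *Hsp90aa1* to *Hsp90ab1* FPKM, in which any single factor per library cancels. Untreated libraries had a ratio of 0.0839 ± 0.00282 and Cu/ES libraries 0.615 ± 0.0509, while Cu/ES with TCA gave 0.409 ± 0.0139 and TCA alone 0.0878 ± 0.00400 (mean ± SD, n = 3). *Hsp90ab1* therefore kept the higher level in every group, and the ratio was higher in each library with Cu/ES than in each library without. The mean log2 ratio was 2.55 higher with Cu/ES (2.87 without TCA, 2.22 with it), and the exact two-sided permutation test that exchanged Cu/ES labels within the libraries with and without TCA gave p = 0.005, the smallest that 400 arrangements allow. With TCA the mean log2 ratio differed by -0.26, made of 0.07 without Cu/ES and -0.58 with it, and this average did not pass the exact permutation test (p = 0.09). Quantile normalization, which changes genes unequally, does alter the ratio. The difference of both genes' log2 fold changes was then 3.15 in place of 2.86 for group B vs. A, and -0.33 in place of -0.58 for group C vs. B. Both genes together took 0.509% ± 0.00671 of all reads in untreated cells, 1.24% ± 0.0163 under Cu/ES, 1.13% ± 0.0828 under Cu/ES with TCA and 0.492% ± 0.00817 under TCA alone (mean ± SD, n = 3).

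**Figure D2:**
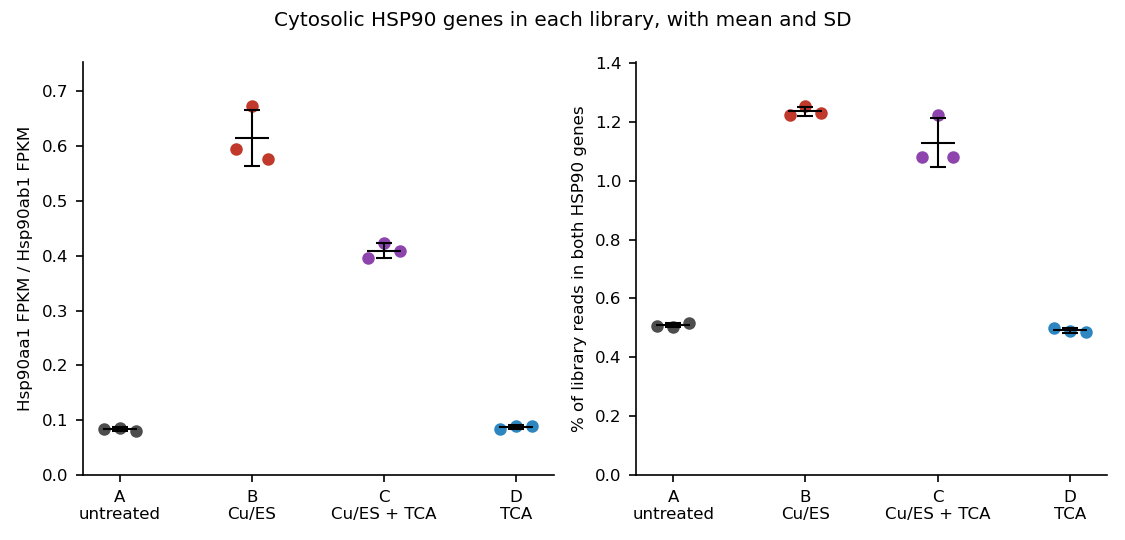
Ratio of *Hsp90aa1* to *Hsp90ab1* FPKM (left) and percentage of the library's reads in both genes (right) by group, on linear axes that start at 0. Points are libraries and bars are mean and SD of 3 libraries; the ratio is 0.0839 in group A, 0.615 in group B and 0.409 in group C.

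Processed pseudogenes resemble *Hsp90aa1* closely, and 3 of them matched its transcripts at 97.1 to 99.5% identity over 788 to 2255 bases in the GENCODE M21 annotation. None of the 3 has a row under that name in the FPKM table, so how their reads were assigned could not be checked and the level of *Hsp90aa1* is uncertain to that extent. No such copy was found for *Hsp90ab1*, *Hsf1*, *Hsf2*, *Fkbp4* or *Chordc1*, with a minimum of 150 aligned bases at 95% identity. Whether reads were counted by strand is not given in the sources used here, and among the 10 genes *Ahsa1* shares exon bases with another annotated gene, the miRNA gene *Gm47293*, over 76 bases on the same strand.

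The RNA of both heat shock factors was close to its untreated level under Cu/ES on FPKM, though not on every scaling. *Hsf1*, the main activator of heat shock genes, measured 19.5, 18.7 and 18.9 FPKM in untreated cells, 17.9, 18.1 and 18.3 under Cu/ES, 19.6, 20.4 and 18.9 under Cu/ES with TCA and 23.2, 25.9 and 26.2 under TCA alone. Only the libraries of group D stood above all others, and the ranges of groups A and C overlapped. For group B vs. A its log2 fold change was -0.07 ± 0.06 with a 95% interval of -0.21 to 0.07 (limma, adjusted p = 0.322). This lay 1.03 above the median gene, and *Hsf1* fell by 0.43 with TPM but rose by 1.20 under median-ratio scaling and by 0.77 under quantile normalization, each past the test.

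*Hsf2*, a related factor that can form mixed trimers with HSF1, was the lowest of the 10 genes in every group. It measured 2.29, 2.04 and 2.33 FPKM in untreated cells, 2.28, 2.51 and 2.40 under Cu/ES, 2.58, 2.38 and 2.39 under Cu/ES with TCA and 2.04, 2.14 and 2.41 under TCA alone. The highest and lowest libraries of all 12 differed little, and group C lay just above group A while every other pair of groups overlapped. The log2 fold change for group B vs. A was 0.08 ± 0.08 (limma, adjusted p = 0.353, 95% interval -0.09 to 0.25), and it was -0.22 with TPM, 1.002 under median-ratio scaling and 1.41 under quantile normalization, of which the last 2 passed the test. RNA levels say nothing of the trimers or phosphorylation through which heat shock factors are switched on.

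Among the co-chaperones the largest rise was in *Ahsa1*, the activator of the HSP90 ATPase. It measured 31.7, 34.5 and 34.5 FPKM in untreated cells, 269, 289 and 285 under Cu/ES, 260.1, 304 and 258 under Cu/ES with TCA and 41.3, 43.4 and 41.9 under TCA alone. The 6 libraries with Cu/ES shared one range, well above the others, and group D lay just above group A without overlap. For group B vs. A the log2 fold change was 3.03 ± 0.07 (limma, adjusted p = 9.78e-14), or 8.15-fold. A noncoding RNA, *Gm49207*, shared 267 bases with it at 99.6% identity and had no row in the table.

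*Stip1*, also called HOP, hands clients from HSP70 to HSP90. Its libraries measured 108, 111 and 114 FPKM when untreated and 524, 524 and 526 under Cu/ES, then 462, 509.7 and 488 once TCA was added to Cu/ES and 129.8, 121 and 127 under TCA alone. Groups with and without Cu/ES were far apart, and the 3 libraries of group B were nearly equal. The log2 fold change for group B vs. A was 2.23 ± 0.06 (limma, adjusted p = 1.83e-13), or 4.70-fold. *Cfap20* shared 171 bases with *Stip1* at 99.4% identity, and its own level went the other way, from 21.7 FPKM in group A to 6.21 in group B.

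*Ptges3* encodes p23, which holds the closed, ATP-bound dimer. It measured 90.6, 83.9 and 85.5 FPKM in untreated cells, 366, 369.9 and 354 under Cu/ES, 285, 348 and 304 under Cu/ES with TCA and 96.4, 93.9 and 103 under TCA alone. The groups with Cu/ES again lay wholly above the others. Cu/ES raised it by a log2 fold change of 2.06 ± 0.07 (limma, adjusted p = 2.39e-12), or 4.16-fold. A processed pseudogene, *Ptges3-ps*, is identical to it over 480 bases and has its own row, at 25.4 ± 2.37 FPKM untreated against 90.0 ± 2.31 under Cu/ES (mean ± SD, n = 3), so reads may have been split between both and each level is uncertain. The pseudogene row rose by a log2 fold change of 1.79 ± 0.08 (limma, adjusted p = 1.58e-11), and the ratio of *Ptges3* to *Ptges3-ps* was 3.43 untreated, 4.04 under Cu/ES, 4.26 under Cu/ES with TCA and 3.70 under TCA alone.

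*Chordc1*, also called morgana, is a co-chaperone with zinc-binding CHORD domains. It measured 25.6, 22.04 and 24.0 FPKM in untreated cells, 101, 87.8 and 94.2 under Cu/ES, 73.2, 81.7 and 75.9 under Cu/ES with TCA and 31.2, 29.4 and 29.9 under TCA alone. The order of the groups was the same as for *Ptges3*, with no overlap between any pair of groups. Group B vs. A gave a log2 fold change of 1.94 ± 0.07 (limma, adjusted p = 4.76e-12), or 3.83-fold.

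*Cdc37*, which brings kinases to HSP90, differed little between groups on FPKM. It measured 104, 121 and 113 FPKM in untreated cells, 128, 124 and 142 under Cu/ES, 116, 145 and 116 under Cu/ES with TCA and 113, 115 and 106 under TCA alone. Every library of group B was above every library of group A, but by little, and group C overlapped both. Groups A and D overlapped. The log2 fold change for group B vs. A was 0.22 ± 0.09 (limma, adjusted p = 0.0304), and it was -0.15 with TPM, -0.02 under quantile normalization and 1.55 under median-ratio scaling. The adjusted p was 0.0687 without a filter on low values, 0.128 without library A1, 0.059 without A3 and 0.13 without B3, and it ran from 5.29e-09 (median-ratio scaling) to 0.786 (quantile normalization) over all 16 alternatives. Stretches of 152 and 175 bases of *Gm32885* and *Trpc4ap* resembled *Cdc37* at 95.4% identity.

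*Fkbp4* encodes FKBP52, an immunophilin of steroid receptor complexes, and was the co-chaperone of the 10 genes that fell on the FPKM scale. It measured 62.9, 65.5 and 63.3 FPKM in untreated cells, 38.9, 38.4 and 38.4 under Cu/ES, 19.6, 23.1 and 19.2 under Cu/ES with TCA and 74.1, 69.9 and 78.6 under TCA alone. The order was D, A, B and C from highest to lowest, with no overlap between groups. In group B vs. A its log2 fold change was -0.72 ± 0.07 (limma, adjusted p = 2.69e-07), a smaller fall than that of the median gene, and under median-ratio scaling *Fkbp4* rose by 0.60. As measured within libraries on FPKM, the ratio of *Fkbp4* to *Stip1* was 0.576 ± 0.0202 untreated, 0.0735 ± 0.000664 under Cu/ES, 0.0424 ± 0.00299 under Cu/ES with TCA and 0.590 ± 0.0275 under TCA alone (mean ± SD, n = 3). This ratio was chosen after the values were seen and was not tested.

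**Figure D3:**
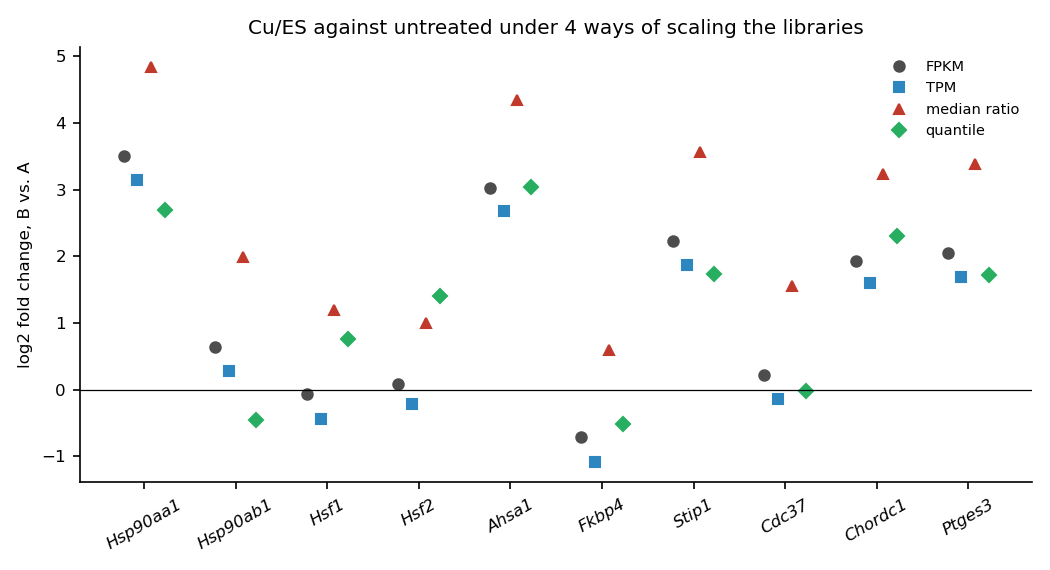
log2 fold change for group B vs. A of the 10 genes (y axis) under 4 ways of scaling the libraries. *Hsp90aa1*, *Ahsa1*, *Stip1*, *Chordc1* and *Ptges3* lie above 0 under all 4, whereas *Hsp90ab1* is negative under quantile normalization, *Fkbp4* is positive under median ratio, and *Hsf1*, *Hsf2* and *Cdc37* change sign with the scaling.

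Promoter sequences are shown for 4 co-chaperone genes because they differ in heat shock element letters as well as in response to Cu/ES. RefSeq windows of 300 bases (build GRCm38.p6, 250 before to 50 after the gene start) were at hand for 7 of the 10 genes, all but *Hsp90aa1*, *Hsp90ab1* and *Hsf1*. Capitals mark each run of the letters GAANNTTC or TTCNNGAA, searched on both strands, where N is any base and the runs may overlap. The windows lie at chr9:18292017-18292316 (plus strand) for *Chordc1*, chr6:128438607-128438906 (minus) for *Fkbp4*, chr9:21149885-21150184 (minus) for *Cdc37* and chr12:87266478-87266777 (plus) for *Ahsa1*.
Chordc1: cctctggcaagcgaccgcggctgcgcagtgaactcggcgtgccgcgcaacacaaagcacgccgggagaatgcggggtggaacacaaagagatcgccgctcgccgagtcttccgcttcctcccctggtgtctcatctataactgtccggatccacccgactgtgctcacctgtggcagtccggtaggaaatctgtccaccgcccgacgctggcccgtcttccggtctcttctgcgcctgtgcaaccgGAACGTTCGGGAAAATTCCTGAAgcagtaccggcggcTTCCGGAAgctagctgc
Fkbp4: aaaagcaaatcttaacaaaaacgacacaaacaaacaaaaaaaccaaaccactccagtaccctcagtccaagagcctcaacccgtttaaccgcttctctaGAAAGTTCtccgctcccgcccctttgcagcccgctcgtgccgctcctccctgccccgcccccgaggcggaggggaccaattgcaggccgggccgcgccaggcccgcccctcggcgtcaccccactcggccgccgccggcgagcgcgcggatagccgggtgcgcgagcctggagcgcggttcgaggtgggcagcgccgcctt
Cdc37: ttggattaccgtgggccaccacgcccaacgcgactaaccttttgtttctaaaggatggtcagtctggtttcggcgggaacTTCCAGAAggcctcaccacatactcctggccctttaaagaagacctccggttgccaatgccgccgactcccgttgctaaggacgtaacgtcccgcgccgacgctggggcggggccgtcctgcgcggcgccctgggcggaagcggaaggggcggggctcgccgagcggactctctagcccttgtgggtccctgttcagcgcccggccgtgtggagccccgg
Ahsa1: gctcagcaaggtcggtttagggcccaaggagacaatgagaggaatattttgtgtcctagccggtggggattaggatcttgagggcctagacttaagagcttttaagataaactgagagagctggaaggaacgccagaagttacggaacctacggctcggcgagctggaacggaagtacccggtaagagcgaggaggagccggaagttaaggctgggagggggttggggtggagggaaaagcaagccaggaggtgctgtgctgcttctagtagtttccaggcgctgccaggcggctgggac

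At least 1 pair of units was present in 3 of the 7 windows, against 15.1% of all 32851 RefSeq promoter windows of that length. *Chordc1* had 5 alternating units in a run of 23 bases from position -4 to 19, counted from the gene start, and a further pair from 34 to 41. The window of *Fkbp4* held a single pair from -151 to -144, and that of *Cdc37* held a single pair from -170 to -163. Runs of at least 3 units (GAANNTTCNNGAA or TTCNNGAANNTTC), found in 0.603% of all windows, occurred in *Chordc1* alone of the 7. *Ahsa1*, *Stip1*, *Ptges3* and *Hsf2* had neither in these windows. Only exact letters were searched, so units with a changed base were not counted and may be present. The pair was present in *Fkbp4*, which fell on the FPKM scale, and in *Chordc1*, which rose. In the windows of 15 listed HSF1 targets outside the HSP90 machinery, 10 had the pair and 3 had 3 units or more. The match of letters is a description and not a binding measurement.

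Next, TCA was compared in the presence of Cu/ES (group C vs. B). Of the 10 genes 4 fell, namely *Hsp90aa1*, *Fkbp4*, *Chordc1* and *Ptges3*, and 0 rose, against 23.6% of all genes called lower and 20.4% called higher. No gene was higher at an unadjusted p under 0.05 or with limma-voom either, where the count was also 0. *Fkbp4* had the largest fall, with a log2 fold change of -0.87 ± 0.07 (limma, adjusted p = 1.95e-06), followed by *Hsp90aa1* with -0.50 ± 0.07 (adjusted p = 8.44e-05). *Chordc1* fell by less, with -0.29 ± 0.07 (limma, adjusted p = 0.00567). *Ptges3* had a log2 fold change of -0.22 ± 0.07 (limma, adjusted p = 0.0231), which did not pass with TPM, median-ratio scaling, quantile normalization or a fit of both groups alone, nor without library B1, B2, C1 or C3 (adjusted p 0.00103 to 0.145 over 16 alternatives).

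The other 6 genes did not pass. *Hsp90ab1* differed by 0.08 ± 0.06, *Hsf1* by 0.11 ± 0.06, *Hsf2* by 0.02 ± 0.08, *Ahsa1* by -0.04 ± 0.07, *Stip1* by -0.11 ± 0.06 and *Cdc37* by -0.07 ± 0.09 (log2 fold change ± SE). The 95% interval was -0.19 to 0.11 for *Ahsa1* and -0.23 to 0.01 for *Stip1*. *Hsp90ab1* passed with TPM, at 0.16 (limma, adjusted p = 0.00278, against up to 0.686 over 16 alternatives). Library C2, the deepest of group C, had the highest FPKM of the group for 9 of the 10 genes. It also had the largest FPKM total (503902, against 454356 for C1 and 459225 for C3). The share of all genes that were highest in C2 was not counted, so this is not read as a trait of the 10 genes. Without C2, *Hsp90aa1* fell by 0.58, *Fkbp4* by 0.95, *Chordc1* by 0.33 and *Ptges3* by 0.30, and *Stip1* also passed, falling by 0.14 (limma, adjusted p = 0.0398; 0.0398 to 0.691 over 16 alternatives).

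**Figure D4:**
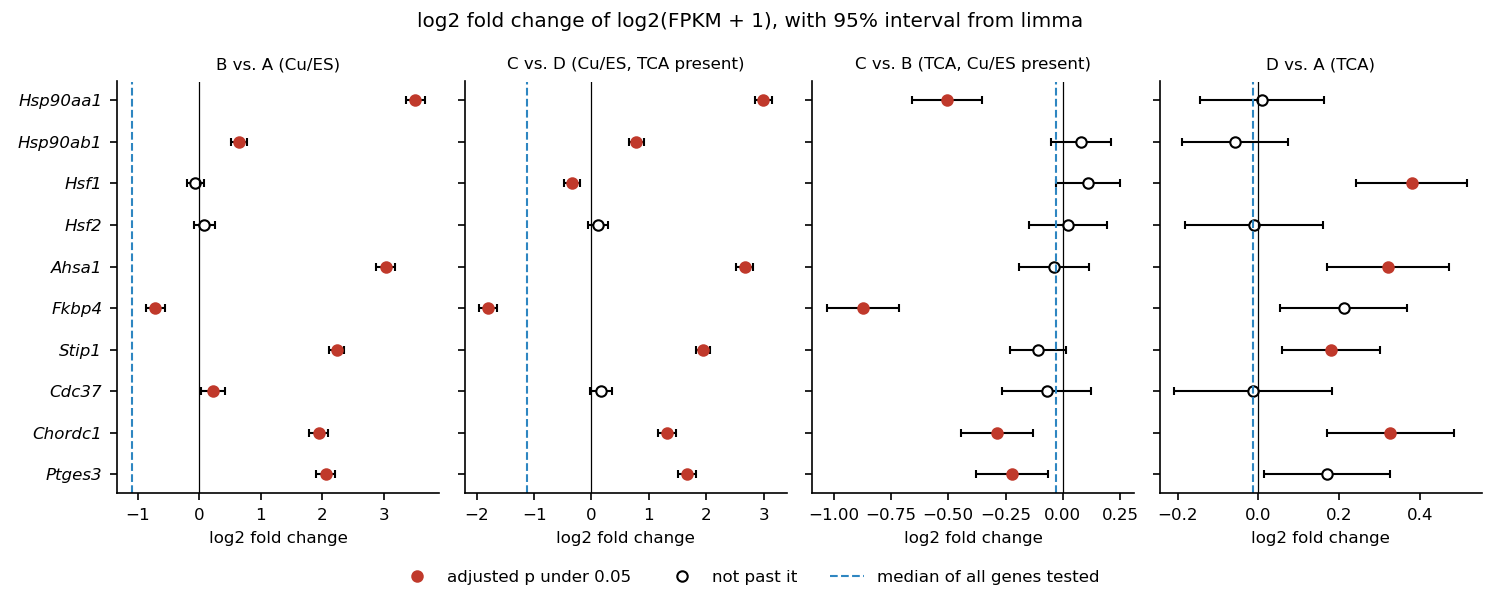
log2 fold change of the 10 genes (x axis, each panel with its own range) in 4 comparisons on FPKM, with 95% intervals from limma on 3 libraries per group. Filled points pass an adjusted p of 0.05, and the dashed line is the median of all 10615 genes tested, at -1.10 for group B vs. A and -1.13 for group C vs. D. Of the filled points, *Hsp90ab1*, *Cdc37* and *Fkbp4* (B vs. A) and *Hsp90ab1* and *Hsf1* (C vs. D) change sign on other scalings, as do several open points.

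TCA without Cu/ES (group D vs. A) gave small rises. Of the 10 genes 4 rose (*Hsf1*, *Ahsa1*, *Chordc1* and *Stip1*) and 0 fell, against 10.5% of all genes called higher and 11.5% called lower. No fall reached an unadjusted p under 0.05 (0 genes), and limma-voom also called 0 lower and 5 higher, *Fkbp4* being the additional gene. *Hsf1* rose by 0.38 ± 0.06 (limma, adjusted p = 0.00141), which is 1.30-fold. *Ahsa1* rose by 0.32 ± 0.07 (adjusted p = 0.0062) and *Chordc1* by 0.33 ± 0.07 (adjusted p = 0.00684, limma). *Stip1* rose by 0.18 ± 0.06 (limma, adjusted p = 0.0357), and did not pass under median-ratio scaling, without the mean-variance trend, or without library A1, A2, A3, D1 or D3 (adjusted p 0.0207 to 0.129 over 16 alternatives). *Fkbp4* differed by 0.21 ± 0.07 (adjusted p = 0.0536) and *Ptges3* by 0.17 ± 0.07 (adjusted p = 0.108, limma). *Hsp90aa1* differed by 0.01 ± 0.07, with a 95% interval of -0.14 to 0.16, and *Hsp90ab1* by -0.06 ± 0.06, with -0.19 to 0.07.

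Cu/ES was also compared within TCA (group C vs. D). Of the 10 genes 6 rose and 2 fell, against 20.9% and 71.5% of all genes, and with the fold condition 5 rose and 1 fell, against 11.2% and 53.3%. The rises were 3.00 ± 0.07 for *Hsp90aa1*, 2.67 ± 0.07 for *Ahsa1*, 1.94 ± 0.06 for *Stip1*, 1.66 ± 0.07 for *Ptges3* and 1.32 ± 0.07 for *Chordc1* (log2 fold change ± SE, the largest adjusted p of the 5 being 2.51e-10, limma). *Hsp90ab1* rose by 0.78 ± 0.06 but fell by 0.43 under quantile normalization. *Fkbp4* fell further than the median gene, with -1.80 ± 0.07 (limma, adjusted p = 8.41e-12) against -1.13. *Hsf1* fell, with -0.34 ± 0.06 (limma, adjusted p = 0.000173), although it rose by 0.99 under median-ratio scaling and by 0.39 under quantile normalization. *Cdc37* (0.17 ± 0.09) and *Hsf2* (0.11 ± 0.08) did not pass on FPKM. Under median-ratio scaling both passed, at 1.54 and 1.08, and under quantile normalization *Hsf2* passed at 1.37, whereas TPM gave -0.12 for *Cdc37* and -0.11 for *Hsf2*.

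Whether the Cu/ES effect differed with TCA was tested as the interaction, that is, the log2 fold change of C vs. D minus that of B vs. A. It was negative and past the test for 7 of the 10 genes and positive for 0, against 19.8% and 17.7% of all genes, and 0 were positive at an unadjusted p under 0.05 or with limma-voom. *Fkbp4* had the largest, at -1.08 ± 0.10 (limma, adjusted p = 1.54e-05), then *Chordc1* at -0.62 ± 0.10 (adjusted p = 0.000577) and *Hsp90aa1* at -0.51 ± 0.10 (adjusted p = 0.00162). *Ptges3*, *Ahsa1*, *Stip1* and *Hsf1* lay between -0.39 and -0.27. Under median-ratio scaling 4 genes passed in place of 7, since *Ahsa1* (limma, adjusted p = 0.0606), *Stip1* (0.0697) and *Hsf1* (0.108) did not. Under quantile normalization *Hsp90aa1* was at -0.18 and *Stip1* at -0.18, and neither passed (limma, adjusted p = 0.079 and 0.0682). Over 21 alternatives the adjusted p ran from 9.02e-05 to 0.079 for *Hsp90aa1*, from 0.000715 to 0.0606 for *Ahsa1* and from 0.00285 to 0.0697 for *Stip1*. For *Hsf1* the call did not hold with TPM or median-ratio scaling, nor without A2, A3, B1, B2, B3, C1, C3, D2 or D3 (adjusted p 0.0113 to 0.189 over 21 alternatives). *Hsp90ab1* (0.14 ± 0.09), *Hsf2* (0.03 ± 0.11) and *Cdc37* (-0.06 ± 0.13) did not pass. The interaction uses the same libraries as the other comparisons and is no separate evidence for them.

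Ordered by mean FPKM, *Hsp90ab1* was first in every group, *Hsp90aa1* second and *Hsf2* last. Among all genes *Hsp90ab1* held place 13 in group A and 23 in group B, while *Hsp90aa1* went from place 334 to 59. *Stip1*, *Ptges3* and *Ahsa1* followed in group B, in the order given. In group A the places after *Hsp90aa1* were held by *Cdc37* and *Stip1*, which overlapped between libraries. In group C *Ptges3* overlapped *Ahsa1* and *Fkbp4* overlapped *Hsf1*, and all other neighbours in the 4 groups were apart. The 10 genes made up 0.641% ± 0.00695 of the summed FPKM in untreated cells against 1.23% ± 0.0198 under Cu/ES (mean ± SD, n = 3).

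HSP90 genes of other compartments were set beside the cytosolic pair. *Hsp90b1*, which encodes GRP94 of the endoplasmic reticulum, did not pass for group B vs. A, with -0.14 ± 0.06 (limma, adjusted p = 0.0529), and rose in group C vs. B by 0.38 ± 0.06 (adjusted p = 0.000365). *Trap1*, the mitochondrial HSP90, fell from 43.4 ± 1.35 FPKM in untreated cells to 17.9 ± 0.882 under Cu/ES and 11.1 ± 0.427 with TCA added (mean ± SD, n = 3). Its log2 fold change was -1.23 ± 0.06 for group B vs. A and -0.65 ± 0.06 for group C vs. B (limma, adjusted p = 9.33e-11 and 4.42e-06). Of 6 other heat shock factors and regulators, 5 were in the table and 2 were high enough to be tested. Both fell on FPKM, *Hsf4*, a factor best known from the lens, with -1.76 ± 0.14 and *Hsbp1*, a binding protein that restrains HSF1, with -0.59 ± 0.08. For group B vs. A 72.0% of all genes tested were called lower, and the median log2 fold change was -1.10. Relative to that median, *Hsf4* stood at -0.66, *Trap1* at -0.13, *Hsbp1* at 0.51 and *Hsp90b1* at 0.96.

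Of 28 other HSP90 co-chaperones tested for group B vs. A, 7 rose (25.0%) and 18 fell (64.3%), against 20.1% and 72.0% of all genes, so the shares were near those of all genes, and the median log2 fold change was -0.81 beside -1.10. The largest rises were in *Ppid*, the cyclophilin 40 of steroid receptor complexes (1.91 ± 0.07), *St13*, the HSP70-interacting HIP (1.37 ± 0.05), and *Fnip1*, a folliculin partner that slows the ATPase (1.32 ± 0.09). The largest falls were in *Fkbp5*, the FKBP51 immunophilin (-3.96 ± 0.15), *Nudcd2* (-3.38 ± 0.09) and *Ttc4* (-2.94 ± 0.09). All 6 passed the test (limma, the largest adjusted p being 4.62e-09). With TCA added (group C vs. B), 4 of the 28 rose and 11 fell, against 20.4% and 23.6% of all genes, with a median of -0.18 beside -0.03. Both immunophilins with FKBP domains named here, *Fkbp4* and *Fkbp5*, fell for group B vs. A on the FPKM scale while the cyclophilin *Ppid* rose, a grouping made after the values were seen. Relative to the median gene they went opposite ways, with 0.38 for *Fkbp4* and -2.86 for *Fkbp5*.

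Of 21 HSP90 clients tested, 1 rose for group B vs. A and 18 fell (4.76% and 85.7%), against 20.1% and 72.0% of all genes, with a median of -1.56 beside -1.10. *Cdk4*, the kinase of the G1 phase, was the gene that rose on FPKM (0.15 ± 0.07, limma, adjusted p = 0.0406), and it fell in group C vs. B, with -0.89 ± 0.07 (adjusted p = 9.35e-07). A rise this small for group B vs. A can change sign with the scaling, as that of *Cdc37* did (0.22 on FPKM, -0.15 with TPM). *Ikbkb*, a kinase of NF-κB signalling, and *Wee1*, a mitotic inhibitor kinase, did not pass (-0.05 ± 0.07 and -0.16 ± 0.10). The largest falls were in *Insr*, the insulin receptor (-2.54 ± 0.09), *Ilk*, the integrin-linked kinase (-2.44 ± 0.11), and *Ahr*, the aryl hydrocarbon receptor (-2.17 ± 0.09). For group C vs. B, 2 rose and 4 fell, against 20.4% and 23.6% of all genes, and the median of -0.02 was near the -0.03 of all genes.

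Of 19 HSF1 targets outside the HSP90 machinery, 16 rose for group B vs. A and 2 fell, against 20.1% and 72.0% of all genes, with a median of 2.62 beside -1.10. *Hspa1b* and *Hspa1a*, the inducible and nearly identical HSP70 genes whose reads may be split, reached 7842 ± 957 and 443 ± 208 FPKM in group B (mean ± SD, n = 3), where *Hspa1a* was listed at 0 in group A. *Cryab*, a small heat shock protein, rose by 7.72 ± 0.21 (limma, adjusted p = 2.9e-13). The 2 that fell on FPKM were *Serpinh1*, the collagen chaperone (-0.40 ± 0.07), and *Hspa4l*, an HSP110 relative (-0.55 ± 0.15), and *Hspa4* did not pass (0.10 ± 0.05). Relative to the median gene, *Serpinh1* stood at 0.70, *Hspa4l* at 0.55 and *Hspa4* at 1.20. With TCA added (group C vs. B), 2 of the 19 rose and 10 fell, against 20.4% and 23.6% of all genes, with a median of -0.34, beside -0.09 over the 10 genes and -0.03 over all genes. For TCA without Cu/ES (group D vs. A), 5 rose and 1 fell, against 10.5% and 11.5% of all genes, with a median of 0.15 beside -0.01. These lists were chosen with earlier results of the same libraries known, so their counts are a description.

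**Figure D5:**
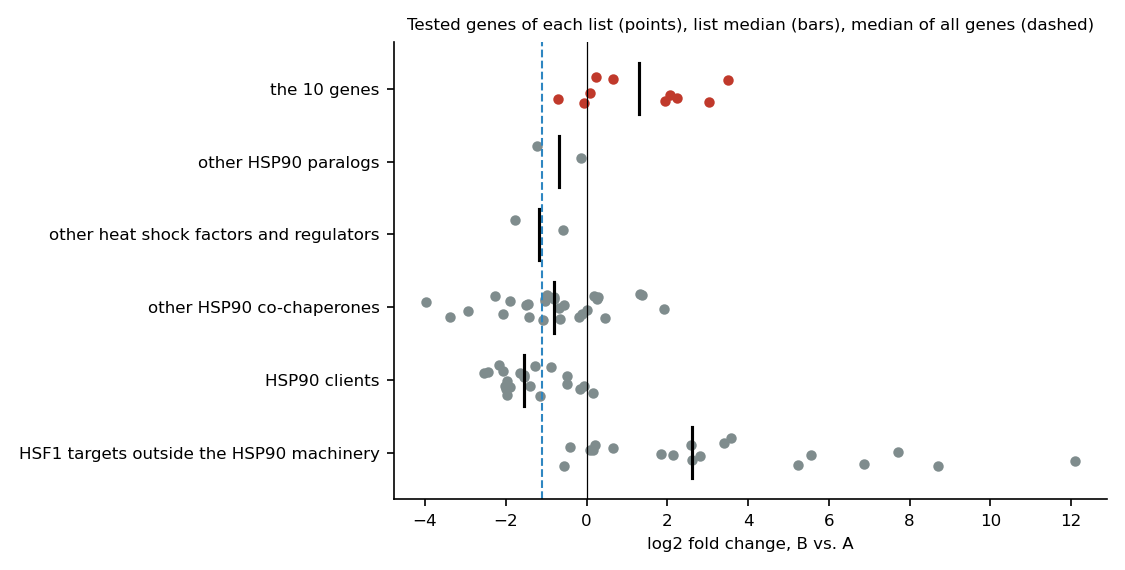
log2 fold change for group B vs. A on FPKM (x axis) of each tested gene (points) in the 10 genes and in 5 lists of related genes (rows), with the list median (bars) and the median of all 10615 genes at -1.10 (dashed). The 10 genes have a median of 1.29 and the HSF1 targets 2.62, against -0.81 for other co-chaperones and -1.56 for clients; points near 0 can change sign with the scaling.

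Genes with the most similar profile were found by the root mean square difference of log2(FPKM + 1), after subtracting the mean of group A, over the 12 libraries and 6878 genes with a mean of at least 5 FPKM. Nearest to *Hsp90aa1* was the polyubiquitin gene *Ubb*, at 0.0941, with means of 531.8 FPKM untreated, 6429 under Cu/ES, 4533 under both agents and 534 under TCA alone. *Lce1d* (0.213), which was listed at 0 in groups A and D, and *Dnajb9* (0.233), a chaperone of the endoplasmic reticulum, came next, and *Ahsa1* was the nearest of the 10 genes at rank 9 (0.290). *Hsp90ab1* was nearest to genes of translation, *Rpl10* (0.0497), *Eef1g* (0.0583) and *Eef1a1* (0.0644). For *Hsf1* the nearest were *Fastkd5* (0.0902), *Tepsin* (0.0982) and *Srpk1* (0.0996), and the nearest of the 10 genes was *Cdc37*, at rank 429. These are descriptions over 12 libraries of 4 groups that share their controls.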

How the data were processed

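AML12 libraries in 4 groups of 3 were grouped by their labels. The authors deposited FPKM for 24824 genes, with replicates kept apart; all columns were used (0 were left unmapped). The submitters' processing notes name fastp, HISAT2, HTSeq and build GRCm39 without versions. DESeq2 on counts was used by the authors, and limma was used here because the file holds FPKM. FPKM steps gave whole reads for 22212 of 22212 genes above 0 in at least 2 libraries (within 0.02 of a read), from which totals and limma-voom reads were taken. The sum over FPKM differs between libraries, so a level is relative to its own library.

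The 10615 genes whose FPKM averaged 1 or more were kept. log2(FPKM + 1) was fitted for all 12 libraries with limma 3.58.1 (R 4.3.3), with empirical Bayes and a mean-variance trend (8 residual degrees of freedom). P-values were two-sided and Benjamini-Hochberg adjusted. Fold changes are on the log2(FPKM + 1) scale, which understates low genes. Ratios were compared by exact permutation tests within strata. The limma fit for group B vs. A was tested on simulated libraries with few changed genes, as many up as down. These lacked the shift of the median gene seen here. The interaction, permutation tests and limma-voom were not simulated. Alternatives were a pseudocount of 0.1, no filter or a mean of 5 FPKM, TPM, median-ratio and quantile scaling, a replicate block, no trend, only the groups compared, limma-voom and each library left out. Replicate numbers come from the labels, which name no shared culture or batch.

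The 10 genes, lists and tests were chosen with earlier results of these data known. Named were the 10 genes, the 3 largest rises and 3 largest falls of each list for group B vs. A (every gene of lists under 7 tested), and the 3 nearest profiles of *Hsp90aa1*, *Hsp90ab1* and *Hsf1*; genes sharing bases with them were added. Copies were searched with BLAST in GENCODE M21, and promoters came from RefSeq (GRCm38.p6). Python 3.11.15 with pandas 2.3.3, numpy 2.4.6 and matplotlib 3.10.9 made tables and plots.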

Additional observations from a re-analysis of the deposited data

Results flagged for a closer look

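The effect of Cu/ES on log2(FPKM + 1) differed with TCA, by limma's interaction test over all genes, for 7 of the 10 genes. All 7 were negative, against 19.8% of all genes negative and 17.7% positive past the test. Under median-ratio scaling 4 passed, without *Ahsa1*, *Stip1* and *Hsf1*, and under quantile normalization *Hsp90aa1* and *Stip1* did not pass. *Hsf1* passed in 3 of 12 fits with a library left out. The differences (C vs. D minus B vs. A) were -1.08 for *Fkbp4*, -0.62 for *Chordc1*, -0.51 for *Hsp90aa1*, -0.39 for *Ptges3*, -0.36 for *Ahsa1*, -0.29 for *Stip1* and -0.27 for *Hsf1*. For *Fkbp4* the Cu/ES effect was -0.72 without TCA and -1.80 with it. For *Chordc1* it was 1.94 without TCA and 1.32 with it, and for *Hsp90aa1* 3.51 and 3.00. For *Ahsa1*, *Stip1* and *Hsf1* the level under Cu/ES did not pass the test for TCA (group C vs. B), while each was higher with TCA alone (group D vs. A). That rise of *Stip1* passed in 1 of 6 fits with a library left out and did not pass under median-ratio scaling. Groups of 3 libraries are too small for a test of single outlying libraries.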

How the results depend on the processing

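The counts of genes passing the test moved from 8 to between 7 and 10 over all alternatives for group B vs. A, and stayed within 1.5 times of the reported count for the other comparisons, apart from the interaction under median-ratio scaling, where 4 genes passed in place of 7. *Ahsa1* (adjusted p = 0.0606), *Stip1* (0.0697) and *Hsf1* (0.108) did not pass there, and *Hsp90aa1* (0.079) and *Stip1* (0.0682) did not pass under quantile normalization. The sign of a log2 fold change turned in these cases. With TPM, group B vs. A gave -0.22 for *Hsf2* and -0.15 for *Cdc37*, C vs. B gave 0.0349 for *Ahsa1* and 0.0039 for *Cdc37*, C vs. D gave -0.11 for *Hsf2* and -0.12 for *Cdc37*, and the interaction gave 0.0246 for *Cdc37*. Under median-ratio scaling, B vs. A gave 1.20 for *Hsf1* and 0.60 for *Fkbp4*, C vs. B gave 0.0213 for *Ahsa1*, D vs. A gave 0.0003 for *Cdc37* and C vs. D gave 0.99 for *Hsf1*. Under quantile normalization, B vs. A gave -0.45 for *Hsp90ab1*, 0.77 for *Hsf1* and -0.0223 for *Cdc37*, C vs. B gave 0.0489 for *Ahsa1*, D vs. A gave -0.0533 for *Hsp90aa1*, 0.0752 for *Hsp90ab1* and 0.0818 for *Hsf2*, C vs. D gave -0.43 for *Hsp90ab1* and 0.39 for *Hsf1*, and the interaction gave -0.0403 for *Hsf2* and 0.0708 for *Cdc37*. These scalings move the median of all genes for B vs. A from -1.10 to -1.56 (TPM), 0.01 (median ratio) and -0.10 (quantile), and the cause of the single turns was not tested further. With each library left out in turn, values that turned sign ranged from -0.12 to 0.0018 for *Ahsa1* (C vs. B), -0.0048 to 0.0456 for *Hsf2* (C vs. B), -0.0698 to 0.0413 for *Cdc37* (D vs. A), -0.0581 to 0.026 for *Hsf2* (D vs. A), -0.0054 to 0.0306 for *Hsp90aa1* (D vs. A), -0.16 to 0.0001 for *Cdc37* (interaction) and -0.0040 to 0.0801 for *Hsf2* (interaction), none of which passed the test as reported. The log2 ratio of *Hsp90aa1* to *Hsp90ab1* moved with Cu/ES by 2.50 to 2.57 with medians, the block or a library left out, all on FPKM, with an exact permutation p of 0.02 for medians and 0.03125 with the replicate block (64 sign flips), and with TCA by -0.28 to -0.23.

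The libraries share only a replicate number: pairing needed r over 0.1 in every pair with the same number, and 11 of 18 had it, against 7 of 36 with other numbers (mean r = 0.125 and -0.059). As a hint from the data, 9 of 12 libraries correlated best with their own number. The replicate block left 8, 4, 4, 8 and 7 of the 10 genes past the test for B vs. A, C vs. B, D vs. A, C vs. D and the interaction, as without it. Over all genes it moved the count from 9777 to 9825, 4670 to 4897, 2339 to 2609, 9807 to 9867 and 3984 to 4190. A fit of only the groups compared was not run for the interaction, which needs all 4, and the filter at a mean of 5 FPKM left out *Hsf2*.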
